A study of Homo sapiens with 6 samples.

Results

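The genes described here are 40 members of the oxidative stress programme of human cells: the transcription factor NRF2 (gene NFE2L2) with its regulators, genes that NRF2 is known to control, and the enzymes of the glutathione and thioredoxin systems. They were taken from the table by name, from a list drawn up with earlier results of these data known, and they are 40 of the 60664 genes in the expression table. Each name matched a single row. A total of 36 members had an average of at least 1 TPM (a transcript level scaled for gene length and library size) over the 6 libraries and were tested. The other 4, namely MAFG, AKR1B10, AKR1C2 and ABCC2, were below that level and are listed as low.

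The cells were 67R, a line made resistant to ASK120067, an inhibitor of the epidermal growth factor receptor (EGFR), by dose escalation of NCI-H1975, a lung adenocarcinoma line whose EGFR carries L858R and T790M. All 6 libraries therefore share the same resistant line, and the parental line is not among them. A negative control siRNA was used for 3 libraries (siNC) and siRNA against BCAT1, the cytosolic branched-chain amino acid transaminase, for the other 3 (siBCAT1). The labels give no drug exposure or time after transfection. The study's methods list a pair of BCAT1 siRNAs and use the plain name siBCAT1, which the labels carry, for the second of them. With a single siRNA, loss of BCAT1 and other effects of the siRNA cannot be told apart. The labels also do not say whether the 3 libraries of a group came from separate cultures, and the p-values then measure only the spread between these libraries, which may be technical.

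NRF2 is a transcription factor that is held in the cytoplasm and marked for degradation by KEAP1. When KEAP1 is modified by oxidants or electrophiles, NRF2 accumulates, pairs with a small MAF protein and binds antioxidant response elements, where BACH1 can act as a repressor. Its known targets include the enzymes that make and recycle glutathione, the tripeptide that serves as the main soluble thiol of the cell, and those of the thioredoxin system, which passes electrons from NADPH to peroxiredoxins and other proteins. Mutations that activate this programme are frequent in lung cancer.

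BCAT1, the targeted gene, was measured at 42.70, 42.18 and 29.76 TPM in the siNC libraries and at 8.78, 7.10 and 8.0 TPM in the siBCAT1 libraries, a log2 fold change of -2.12 (SE 0.15). The third siNC library was the lowest of its group, and it still lay above all siBCAT1 libraries. Of the epithelial markers, the keratins KRT7, KRT8, KRT18 and KRT19 were abundant and the lung lineage markers NKX2-1, NAPSA, SFTPB and SFTPC were absent or at most 0.33 TPM in any library. The summed level of the 6 epithelial markers ranged from 2546 to 2948 TPM in siNC and from 1647 to 1935 TPM in siBCAT1, with 5 of 6 lower by the test (CDH1 and the 4 keratins) and EPCAM, which went from a mean of 1.27 to 2.33 TPM without overlap, not called. Of the 4 mesenchymal markers, FN1 rose from 176 to 229.5 TPM, COL1A1 fell from 15.8 to 9.41 TPM, and VIM, at 2922 to 3260 TPM, and COL1A2 did not pass the test. PTPRC, CD3E and PECAM1 reached at most 0.33 TPM, the endothelial marker CDH5 reached at most 2.56 TPM and was not called, and CD68, a lysosomal protein that is not restricted to leukocytes, rose from 33.3 to 54.9 TPM. The part of these marker shifts in the results below was not tested.

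The oxidative stress genes changed in different directions when BCAT1 was knocked down. With limma on log2(TPM + 1) and an adjusted p below 0.05 over all genes tested, 17 of the 36 tested members changed (47.2%), against 27.1% of all 14286 genes tested. By direction, 13 members fell (36.1%, against 10.4% of all genes tested) and 4 rose (11.1%, against 16.7%). The background by direction moved with the scaling, to 13.7% higher and 12.6% lower of all genes tested with median-ratio scaling (3 members higher and 13 lower) and to 14.3% and 13.1% with quantile normalization (3 and 15). The counts also depended on single libraries: 2 members rose and 8 fell without the first siNC library (against 10.7% and 5.57% of all genes tested) or without the second siBCAT1 library (against 10.8% and 6.32%), and 2 rose and 9 fell without the third siNC library (against 10.7% and 6.87%). Small changes were often missed in simulated data of this size, so a member that was not called is not shown to be unchanged, and its 95% interval is given. The 4 that rose were PIR, PRDX4, GCLM and GSTM3. Those that fell were AKR1C3, ABCC3, BACH1, TXNRD1, PRDX2, GPX3, NFE2L2, TXN, OSGIN1, GSR, MGST1, GPX4 and PRDX5. The median log2 fold change of the 36 members was -0.093, against 0.0378 for all genes tested, and their median absolute change was 0.287, against 0.243. Only 4 members changed by at least 1 on the log2 scale (AKR1C3, ABCC3, PIR and PRDX4). The groups did not overlap for 24 members (66.7%), 9 with every siBCAT1 library above every siNC library and 15 with every one below, against 44.1% of all genes tested. Of the 17 members called, 10 were called under every alternative setting in which they could be tested: BACH1, TXNRD1, TXN, PRDX2, PRDX4, GPX4, MGST1, AKR1C3, ABCC3 and PIR. The other 7 calls were lost in at least 1 setting, and the libraries whose removal ended them are given with each gene.

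**Figure D1:**
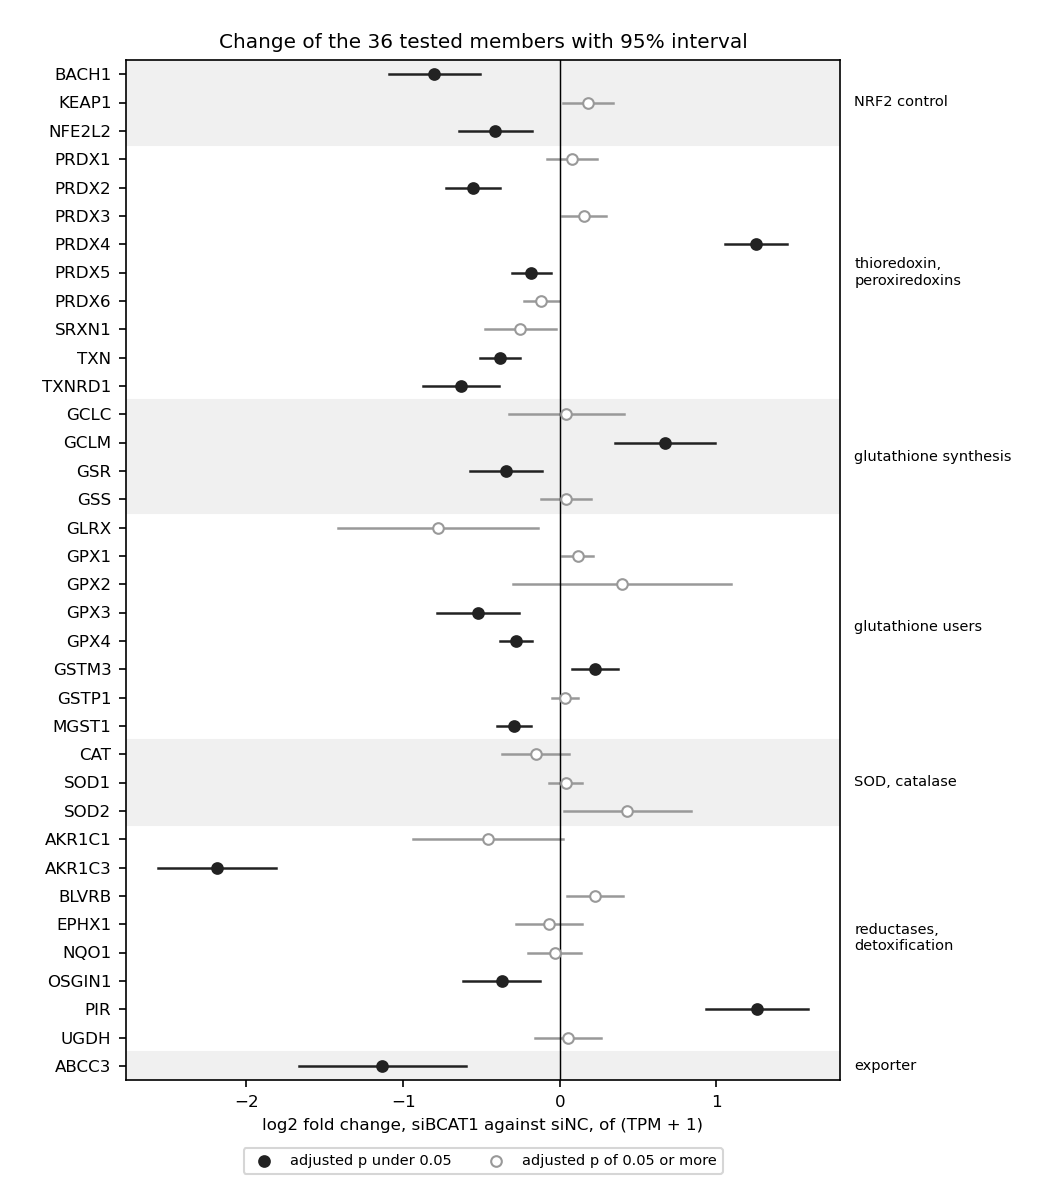
Log2 fold change in siBCAT1 against siNC on the log2(TPM + 1) scale (x axis) of the 36 tested members (y axis, ordered by role), with the 95% interval from limma; filled points mark members with an adjusted p under 0.05. AKR1C3 at -2.19 is the lowest point, PIR at 1.26 and PRDX4 at 1.25 are the highest, and filled points lie on both sides of 0 among the thioredoxin, glutathione synthesis and glutathione user groups.

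Most of these genes are abundant in 67R cells. The median tested member stood at percentile 87.5 of the siNC levels of all genes tested, 16 members had a mean above 100 TPM over the 6 libraries, and 8 had a mean below 10 TPM. The highest was GSTP1, at 1160.16, 1117.67 and 1155.71 TPM in siNC and 1165.91, 1165.39 and 1179.92 TPM in siBCAT1, and the lowest tested was GPX2, with a mean of 1.70 TPM. The members varied less between libraries of a group than other genes did, with a median coefficient of variation of 7.82% in siNC and 6.74% in siBCAT1, against 11.1% and 10% over all genes tested. Of the called members, several were abundant genes with small changes: 7 of the 16 members above 100 TPM were called, and of these only PRDX4 moved by 1 or more on the log2 scale. With a minimum of 5 TPM, 3575 of all 10456 genes tested were called (21.7% higher and 12.5% lower). Of the 33 members tested in that setting, 4 were called higher and 12 lower. No share was taken for all genes above 100 TPM. The sum of all members fell outside the siNC range, at 7053, 7080 and 6993 TPM in siNC and 6789, 6862 and 6723 TPM in siBCAT1. The part of level and spread in the number of calls was not tested.

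**Figure D2:**
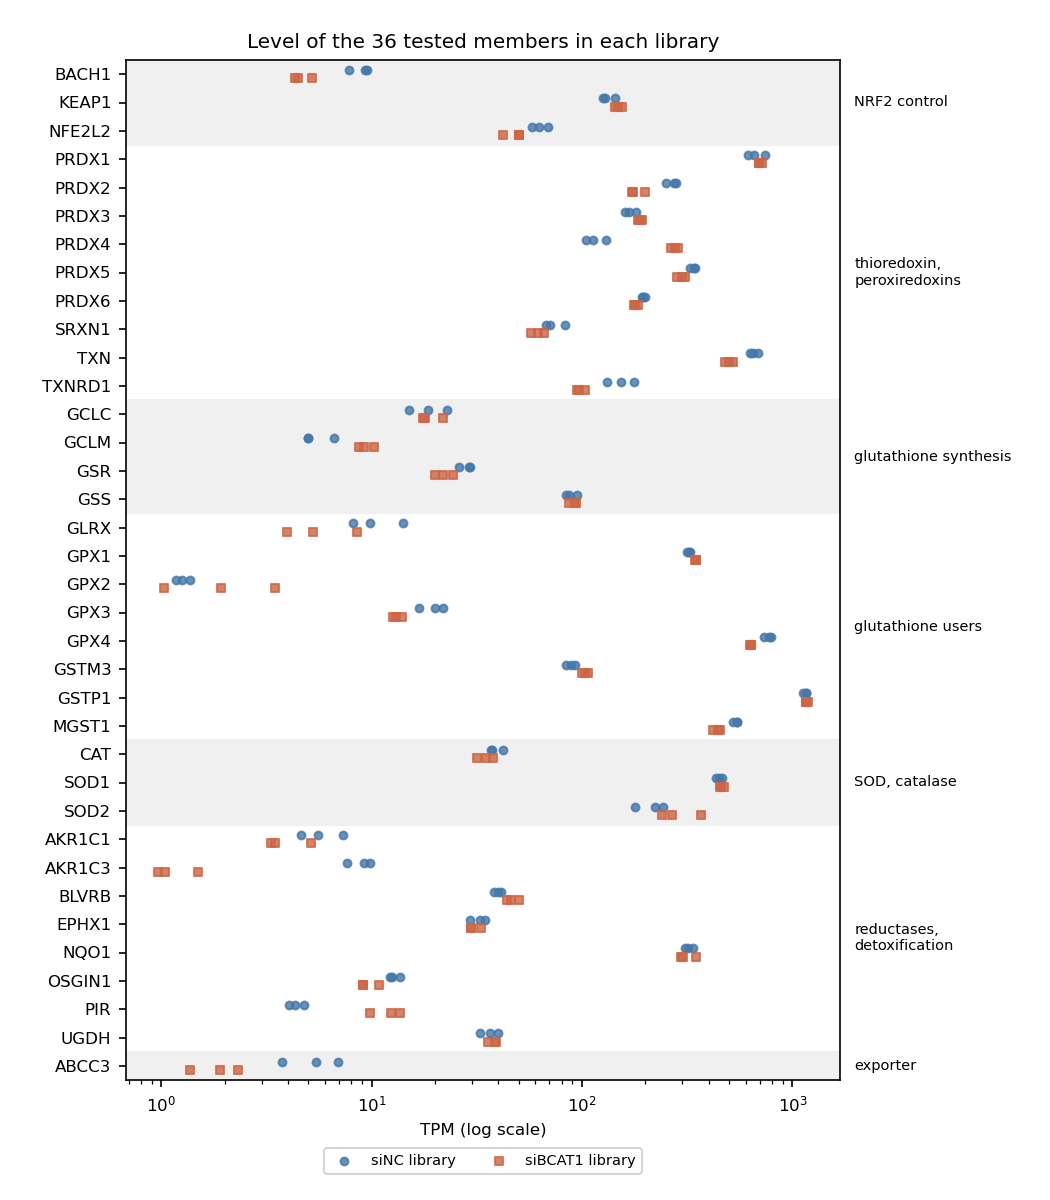
Level of each tested member in each of the 6 libraries in TPM (x axis, log scale), ordered by role (y axis); circles are siNC and squares are siBCAT1 libraries. Levels run from 0.97 TPM for AKR1C3 in the second siBCAT1 library to 1179.92 TPM for GSTP1 in the third, and the groups separate widely for PRDX4, PIR and AKR1C3.

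NRF2 acts through the antioxidant response element, whose core is TGACNNNGC. This core was searched on both strands from 250 bases before to 50 bases after each gene start in RefSeq promoters (GRCh38.p14). It occurred in 8 of the 33 members with a promoter entry (24.2%), against 16.1% of all 27305 genes with one, and in 9 of their 49 promoters (18.4%), against 13.3% of 35116 promoters. The 8 members were GCLM, PIR, TXNRD1, MGST1, GSTP1, KEAP1, GPX2 and EPHX1, and in this set 2 members rose (GCLM and PIR), 2 fell (TXNRD1 and MGST1) and 4 were not called. Of the 22 tested members whose promoter windows held no core, 2 rose, 9 fell and 11 were not called. PRDX1, PRDX6, GSR, GSS, SOD1, AKR1B10 and ABCC3 had no entry. A match describes the letters in this window and is not evidence of binding, and elements outside the window were not searched. A member without the core here is therefore not shown to lack the element. The share of calls over all genes with or without the core was not taken, so these counts have no background beside them. The sequences below show the core in members that rose, fell and did not pass the test, each 5′ to 3′ on the strand of its gene, with the core named beside it, or its reverse complement, in capitals.

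GCLM, rose, chr1:93909430-93909489, minus strand, core beginning 34 bases before the start:
GCLM: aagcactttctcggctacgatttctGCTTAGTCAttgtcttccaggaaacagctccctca
PIR, rose, chrX:15493284-15493343, minus strand, core beginning 26 bases after the start:
PIR: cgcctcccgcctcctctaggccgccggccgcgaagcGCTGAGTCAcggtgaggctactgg
TXNRD1, fell, chr12:104215655-104215714, plus strand, core beginning 99 bases before the start of the promoter that lies first on the strand, which holds another core 8 bases before the start:
TXNRD1: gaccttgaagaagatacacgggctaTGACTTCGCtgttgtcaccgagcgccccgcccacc
TXNRD1, chr12:104286905-104286964, plus strand, core beginning 102 bases before a start further along the gene:
TXNRD1: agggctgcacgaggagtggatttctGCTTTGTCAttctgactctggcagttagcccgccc
MGST1, fell, chr12:16347105-16347164, plus strand, core beginning 30 bases after the start:
MGST1: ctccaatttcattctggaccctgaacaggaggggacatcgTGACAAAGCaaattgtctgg
KEAP1, not called, chr19:10502768-10502827, minus strand, core beginning 31 bases before the start (another core, TGACACGGC, beginning 54 bases before the start, is left in lower case near the left end):
KEAP1: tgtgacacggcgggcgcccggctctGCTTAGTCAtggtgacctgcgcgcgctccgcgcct
GSTP1, not called, chr11:67583721-67583780, plus strand, core beginning 66 bases before the start:
GSTP1: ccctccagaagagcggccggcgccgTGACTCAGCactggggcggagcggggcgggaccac

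The same core letters, TGACTAAGC, stood on the reverse strand of GCLM, which rose, and of KEAP1, which did not pass the test. Those of PIR and GSTP1, TGACTCAGC, were likewise shared by a member that rose and a member that did not pass the test. TGACAAAGC stood in MGST1 and in the TXNRD1 promoter further along the gene, in members that both fell.

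Among the genes that control the programme, the activator and the repressor both fell. NFE2L2, which encodes NRF2 itself (chr2:177227595-177392697, minus strand, GRCh38), was measured at 69.20, 62.59 and 57.94 TPM in siNC and at 50.12, 41.94 and 49.92 TPM in siBCAT1. All siBCAT1 libraries lay below all siNC libraries, and NFE2L2 fell by 0.41 on the log2 scale (SE 0.10, adjusted p = 0.0220). The call was lost without the first siNC library (-0.35, adjusted p = 0.0798), the second siBCAT1 library (-0.33, 0.0643) or the filter on low values (-0.41, 0.0590). Fewer of all genes were called in each of these settings (2318, 2444 and 2567, against 3865). BACH1, the repressor that competes with NRF2 for the same elements, was measured at 9.54, 9.29 and 7.80 TPM in siNC and at 5.20, 4.45 and 4.34 TPM in siBCAT1. The groups were well apart, and BACH1 fell by 0.80 (SE 0.12, adjusted p = 0.00399). NFE2L2 and BACH1 each overlap other transcripts on both strands, and reads could be shared if the counting ignored strand.

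KEAP1, the sensor that targets NRF2 for degradation, was measured at 125.26, 142.92 and 127.93 TPM in siNC and at 143.84, 155.61 and 149.05 TPM in siBCAT1. Every siBCAT1 library lay above every siNC library, the second siNC library only just, but the change of 0.18 (95% interval 0.02 to 0.34) did not pass the test (adjusted p = 0.0933). It did without the second siNC library (0.24, adjusted p = 0.0264) and with the replicate number as a block (0.0396). The ratio of NFE2L2 to KEAP1 levels, both per length, was 0.552, 0.438 and 0.453 in siNC and 0.348, 0.270 and 0.335 in siBCAT1, without overlap. The ratio of NFE2L2 to BACH1 moved the other way, from 7.25, 6.74 and 7.43 to 9.64, 9.43 and 11.50, since BACH1 fell more. MAFG, a small MAF partner of NRF2, was too low to test, at 1.21, 1.24 and 0.01 TPM in siNC and 0, 1.30 and 0 TPM in siBCAT1, and it overlaps SIRT7. Other small MAF genes, MAFF and MAFK, are not members but were tested. MAFF rose from a mean of 13.17 TPM in siNC to 20.95 TPM in siBCAT1 (0.64, SE 0.15, adjusted p = 0.0188). MAFK had means of 19.92 and 20.44 TPM and was not called (0.03, 95% interval -0.24 to 0.29).

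The thioredoxin system fell at its centre, while a peroxiredoxin of the endoplasmic reticulum rose. TXN encodes cytosolic thioredoxin, the small protein that passes electrons to peroxiredoxins. It was measured at 627.82, 686.06 and 647.97 TPM in siNC and at 477.21, 524.47 and 500.49 TPM in siBCAT1. All siBCAT1 libraries were lower, and the log2 fold change was -0.38 (SE 0.05, adjusted p = 0.00290). TXNRD1 encodes the selenoprotein that recharges thioredoxin from NADPH and holds 3 of the core matches above in 2 promoters. Its levels were 153.15, 175.99 and 131.89 TPM in siNC and 102.95, 94.94 and 96.95 TPM in siBCAT1, so that every siBCAT1 library lay below the lowest siNC library, and it fell by 0.63 (SE 0.10, adjusted p = 0.00521). SRXN1, sulfiredoxin, which repairs overoxidised peroxiredoxins, ranged from 67.50 to 83.31 TPM in siNC and from 57.44 to 65.75 TPM in siBCAT1. These ranges did not overlap, but its change of -0.25 (95% interval -0.48 to -0.03) did not pass the test (adjusted p = 0.0949). It did after quantile normalization (-0.34, adjusted p = 0.0429) and with the replicate number as a block (0.0383).

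The 6 peroxiredoxins, which reduce peroxides, did not move as a group: 1 rose, 2 fell and 3 did not pass the test. PRDX4, which works in the secretory pathway and resides in the endoplasmic reticulum (chrX:23664262-23686399, plus strand), was measured at 104.32, 130.02 and 113.12 TPM in siNC and at 265.42, 277.03 and 285.19 TPM in siBCAT1. Every siBCAT1 library lay far above the highest siNC library, the mean was 2.38 times that of siNC, and PRDX4 rose by 1.25 (SE 0.08, adjusted p = 0.000235). PRDX2, an abundant cytosolic form, went from 279.27, 250.40 and 273.35 TPM to 175.16, 199.09 and 172.89 TPM. Its groups did not overlap either, and it fell by 0.55 (SE 0.07, adjusted p = 0.00233). PRDX5, found in mitochondria, peroxisomes and cytosol, fell by 0.18 (SE 0.05, adjusted p = 0.0419), from 338.83, 325.27 and 344.65 TPM to 297.75, 309.80 and 282.24 TPM. That call was the least secure of the family, since it was lost without any single library other than the second siNC library (adjusted p from 0.0524 to 0.118). It was also lost without the filter on low values (0.0884), with limma without the trend (0.129) and with the replicate number as a block (0.0599).

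The remaining peroxiredoxins did not pass the test. PRDX1, the main cytosolic form, gave 0.08 (95% interval -0.08 to 0.24), with siNC levels from 616.08 to 738.73 TPM that enclosed all siBCAT1 levels. PRDX3, the mitochondrial form, gave 0.15 (0.01 to 0.29) and was above the siNC range in every siBCAT1 library, with an adjusted p of 0.103 that became 0.0313 without the second siNC library. PRDX6 gave -0.12 (-0.23 to -0.01) and lay below the siNC range in every siBCAT1 library (adjusted p = 0.108), and its change passed the test after quantile normalization (-0.22, adjusted p = 0.0133) and once GC content and gene length were corrected for (-0.21, adjusted p = 0.0204). Summed over the 6 genes, peroxiredoxin levels overlapped between the groups, at 1700.0, 1818 and 1744 TPM in siNC and 1809, 1873 and 1800.0 TPM in siBCAT1. The share of PRDX1, the largest, overlapped as well, at 36.2% to 40.6% in siNC and 38.4% to 38.7% in siBCAT1. The shares of the other 5 did not. PRDX4 made up 6.14%, 7.15% and 6.49% of the sum in siNC and 14.7%, 14.8% and 15.9% in siBCAT1, and PRDX2 made up 16.4%, 13.8% and 15.7% in siNC and 9.69%, 10.6% and 9.61% in siBCAT1.

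**Figure D3:**
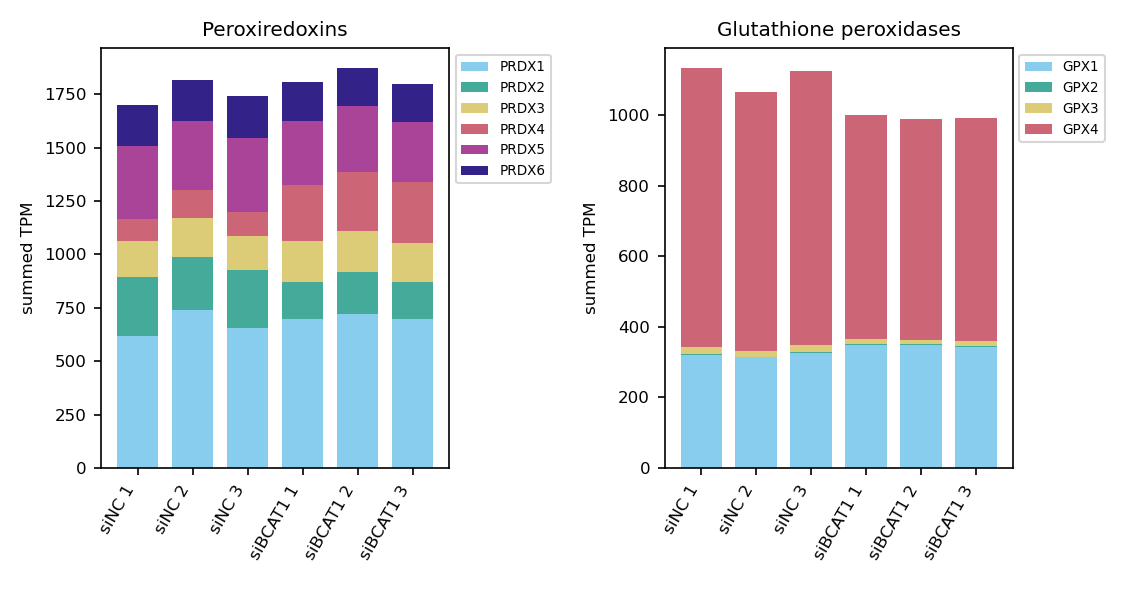
Summed TPM (y axis, from 0) of the 6 peroxiredoxins (left) and of the 4 glutathione peroxidases (right) in each of the 6 libraries (x axis), with each colour a gene. The PRDX4 layer is wider in every siBCAT1 library, while the peroxiredoxin totals stay between 1700.0 and 1873 TPM, and the glutathione peroxidase totals are lower in siBCAT1, with a narrower GPX4 layer.

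In glutathione synthesis the modifier subunit rose, while the catalytic subunit did not pass the test. GCLM, the modifier subunit of glutamate-cysteine ligase, the rate-limiting enzyme (chr1:93885205-93909456, minus strand), was measured at 4.98, 6.66 and 4.96 TPM in siNC and at 9.15, 10.24 and 8.67 TPM in siBCAT1. All siBCAT1 libraries were higher, and GCLM rose by 0.67 (SE 0.14, adjusted p = 0.0117). The call was lost by a small margin without the first siNC library (adjusted p = 0.0565), the third siNC library (0.0502) or the second siBCAT1 library (0.0543), while the change stayed between 0.61 and 0.79 over all alternatives. GCLC, the catalytic subunit, was measured at 22.69, 18.46 and 15.05 TPM in siNC and at 17.94, 21.91 and 17.59 TPM in siBCAT1. These groups overlapped, and the change was 0.04 (95% interval -0.33 to 0.41). The ratio of GCLM to GCLC levels per length was 0.220, 0.361 and 0.330 in siNC and 0.510, 0.467 and 0.493 in siBCAT1, without overlap.

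GSS, glutathione synthetase, which adds glycine in the last step, gave 0.04 (95% interval -0.12 to 0.20) and overlapped between groups, at 83.74 to 94.73 TPM in siNC and 86.70 to 93.68 TPM in siBCAT1. GSR, glutathione reductase, which recycles oxidised glutathione with NADPH, was measured at 29.32, 26 and 29.09 TPM in siNC and at 21.84, 19.92 and 24.38 TPM in siBCAT1. Its groups did not overlap, and it fell by 0.34 (SE 0.10, adjusted p = 0.0395). The adjusted p was 0.127 without the first siNC library, 0.117 without the third siNC library, 0.107 without the first siBCAT1 library and 0.118 without the second siBCAT1 library. The call held without the second siNC library (0.0394) or the third siBCAT1 library (0.0399). It was also lost without the filter on low values (0.0853) and with limma without the trend (0.0578).

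Of the enzymes that use glutathione, 3 fell and 1 rose, and 4 did not pass the test. GPX4, the selenoprotein that reduces lipid hydroperoxides in membranes and protects against ferroptosis, was measured at 791.87, 735.51 and 777.54 TPM in siNC and at 635.64, 626.82 and 632.70 TPM in siBCAT1. The siBCAT1 libraries lay close together below the siNC range, and GPX4 fell by 0.28 (SE 0.04, adjusted p = 0.00383). MGST1, a membrane-bound glutathione transferase with peroxidase activity, went from 545.93, 522.50 and 544.61 TPM to 420.19, 445.01 and 450.68 TPM. It fell by 0.29 (SE 0.05, adjusted p = 0.00448) with no overlap. GPX3, the secreted glutathione peroxidase, was measured at 20.09, 16.74 and 21.82 TPM in siNC and at 13.97, 12.67 and 13.11 TPM in siBCAT1. GPX3 was lower in every siBCAT1 library and fell by 0.52 (SE 0.11, adjusted p = 0.0143), a call that was lost without the first siNC library (adjusted p = 0.0652), the third siNC library (0.0521), the second siBCAT1 library (0.0602) or the third siBCAT1 library (0.0537).

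GSTM3, a glutathione transferase of the mu class, was the member that rose, from 88.60, 92.31 and 83.63 TPM to 107.03, 99.69 and 103.00 TPM. The groups did not overlap, but the rise of 0.23 (SE 0.06, adjusted p = 0.0350) was lost in 11 of 15 alternative settings, including 5 of the 6 that left out a library (all but the second siNC library, adjusted p from 0.0615 to 0.101) and median-ratio scaling (0.18, adjusted p = 0.0736). GPX1, the cytosolic glutathione peroxidase, lay above the siNC range in every siBCAT1 library, at 348.02, 349.73 and 343.79 TPM against 321.37, 314.32 and 326.67 TPM, and gave 0.11 (95% interval 0.02 to 0.21, adjusted p = 0.0868). GSTP1, the most abundant member, gave 0.03 (95% interval -0.05 to 0.12). GPX2, the intestinal form, varied from 1.03 to 3.47 TPM between the siBCAT1 libraries and gave 0.40 with a wide interval of -0.30 to 1.09. GLRX, glutaredoxin, which removes glutathione from proteins, was measured at 9.81, 8.12 and 14.11 TPM in siNC and at 8.50, 5.26 and 3.98 TPM in siBCAT1. Its groups overlapped through the first siBCAT1 library, and the change of -0.78 (95% interval -1.42 to -0.14, adjusted p = 0.0743) became -1.03 (adjusted p = 0.0443) without that library.

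Together, the 4 glutathione peroxidases summed to 1135, 1068 and 1127 TPM in siNC and to 1001, 990.2 and 991.5 TPM in siBCAT1, lower without overlap, also after median-ratio scaling. GPX4 gave 69.8%, 68.9% and 69% of that sum in siNC and 63.5%, 63.3% and 63.8% in siBCAT1. GPX1 gave 28.3%, 29.4% and 29% in siNC and 34.8%, 35.3% and 34.7% in siBCAT1.

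None of the 3 enzymes that remove superoxide and hydrogen peroxide directly passed the test. SOD2, the mitochondrial superoxide dismutase, was measured at 243.54, 179.24 and 221.40 TPM in siNC and at 367.82, 240.57 and 269.13 TPM in siBCAT1. The second siBCAT1 library lay below the first siNC library, and SOD2 gave 0.43 (95% interval 0.03 to 0.83, adjusted p = 0.105). With the replicate number as a block SOD2 passed (adjusted p = 0.0124), although the numbers are not taken as pairing the libraries. SOD1, the cytosolic dismutase, overlapped between groups and gave 0.04 (95% interval -0.07 to 0.14). The sum of SOD1 and SOD2, which was not tested, lay higher without overlap, at 690.8, 640.1 and 656.7 TPM in siNC and 818, 713 and 725.9 TPM in siBCAT1, also after median-ratio scaling. The gene lengths listed with the values (14167 bases for SOD2 and 895 for SOD1) make the weight of each gene in this sum uncertain. CAT, catalase of the peroxisome, also overlapped, at 37.10 to 42.27 TPM in siNC and 31.80 to 37.66 TPM in siBCAT1, and gave -0.15 (95% interval -0.37 to 0.06).

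Among the detoxification genes AKR1C3 fell and PIR rose, each by more than 1 on the log2 scale. AKR1C3, an aldo-keto reductase that reduces steroids, prostaglandins and drug carbonyls (chr10:5035354-5107686, plus strand), was measured at 9.78, 9.16 and 7.64 TPM in siNC and at 1.04, 0.97 and 1.5 TPM in siBCAT1. Every siBCAT1 library was far below every siNC library, the mean was 86.8% lower, and AKR1C3 fell by 2.19 (SE 0.16, adjusted p = 0.000282). With a pseudocount of 0.1 in place of 1 the log2 fold change was -2.83, since the added constant weighs on low values. AKR1C1, the neighbouring and closely related gene, was measured at 7.34, 4.63 and 5.53 TPM in siNC and at 3.31, 5.17 and 3.46 TPM in siBCAT1. Its groups overlapped, and the change was -0.46 (95% interval -0.93 to 0.02, adjusted p = 0.141). AKR1C2 was low, at 0.26, 1.42 and 0.52 TPM in siNC and 0.21, 1.05 and 0.31 TPM in siBCAT1. The AKR1C genes are closely related in sequence, AKR1C1 and AKR1C2 most of all, so the division of reads among them is uncertain. The sum of AKR1C1 and AKR1C3 was 17.1, 13.8 and 13.2 TPM in siNC and 4.35, 6.14 and 4.96 TPM in siBCAT1, lower without overlap. The gene lengths listed with the table (6543 bases for AKR1C1 and 972 for AKR1C3) make a comparison of the levels of these genes uncertain too. AKR1B10, another aldo-keto reductase and a known NRF2 target in lung cancer, was low in every library, from 0.07 to 0.72 TPM.

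PIR, pirin, an iron-binding nuclear protein and known NRF2 target (chrX:15384799-15493564, minus strand), was measured at 4.04, 4.31 and 4.75 TPM in siNC and at 12.35, 13.57 and 9.83 TPM in siBCAT1. The lowest siBCAT1 library was above the highest siNC library by a wide margin, the ratio of the means was 2.73, and PIR rose by 1.26 (SE 0.14, adjusted p = 0.00112). The gene overlaps BMX on the other strand. OSGIN1, a stress-induced growth inhibitor, went from 13.57, 12.44 and 12.25 TPM to 9.07, 9.07 and 10.81 TPM without overlap and fell by 0.37 (SE 0.10, adjusted p = 0.0356). That call was lost on leaving out any library but the third siBCAT1 library (adjusted p from 0.0664 to 0.125), and without the filter on low values (0.0795). NQO1, the quinone reductase most often used as a readout of NRF2, was high and overlapped between groups, at 320.13, 335.66 and 307.75 TPM in siNC and 301.63, 346.88 and 295.36 TPM in siBCAT1. Its change was -0.03 (95% interval -0.20 to 0.14, adjusted p = 0.775), an interval that leaves out the fall of 0.63 seen for TXNRD1.

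BLVRB, biliverdin reductase B, which also reduces flavins, lay above the siNC range in every siBCAT1 library, at 45.87, 50.03 and 43.78 TPM against 39.73, 41.15 and 38.08 TPM. It gave 0.22 (95% interval 0.05 to 0.40, adjusted p = 0.0648) and passed with the replicate number as a block (0.036). EPHX1, microsomal epoxide hydrolase, and UGDH, which makes UDP-glucuronic acid for conjugation, overlapped between groups and gave -0.07 (-0.28 to 0.14) and 0.05 (-0.16 to 0.27). ABCC3, an efflux pump for glucuronide and glutathione conjugates, was measured at 6.90, 5.41 and 3.75 TPM in siNC and at 2.31, 1.90 and 1.37 TPM in siBCAT1. The siNC libraries were spread, but all lay above the siBCAT1 libraries, and ABCC3 fell by 1.13 (SE 0.23, adjusted p = 0.0111). The related pump ABCC2 was low, at 1.01, 0.70 and 0.54 TPM in siNC and 1.16, 1.26 and 0.85 TPM in siBCAT1.

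**Figure D4:**
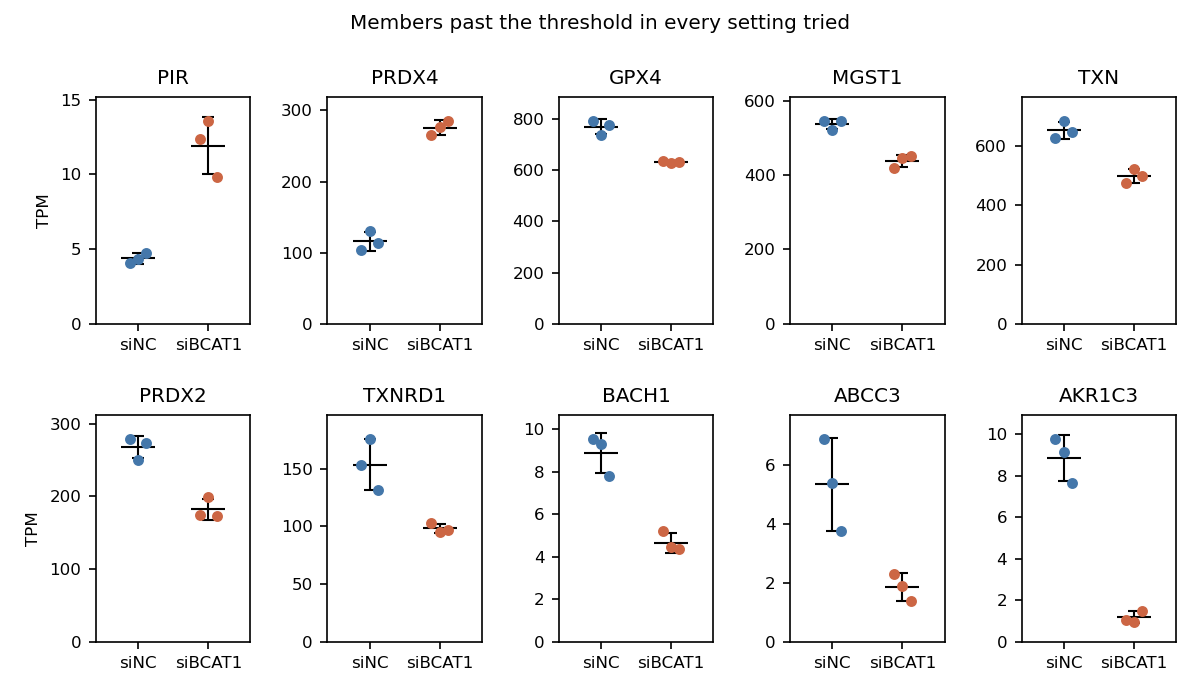
TPM (y axis, from 0, on a separate scale for each gene) in siNC and siBCAT1 libraries (x axis) for the 10 members called in every alternative setting in which they were tested; points are libraries, and the bars are the mean with the SD of 3 libraries. The groups do not overlap for any of the 10, with PIR and PRDX4 higher and the other 8 lower in siBCAT1.

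**Figure D5:**
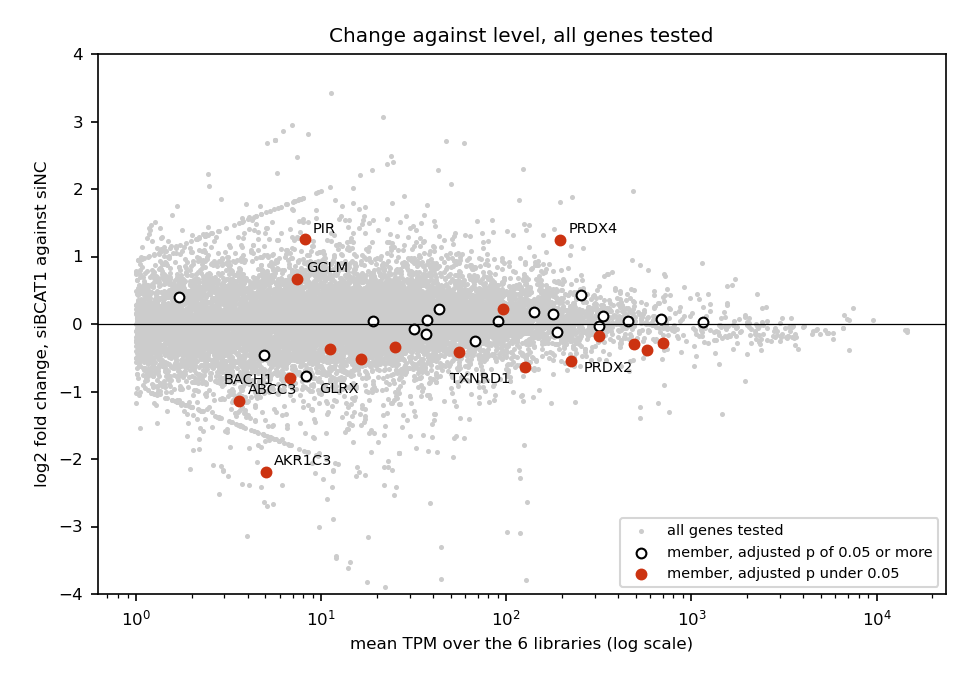
Log2 fold change in siBCAT1 against siNC (y axis) against the mean TPM over the 6 libraries (x axis, log scale) for all 14286 genes tested (grey), with the members as open points or, with an adjusted p under 0.05, as filled points; 7 genes lie beyond the plotted range of 4. PRDX4 lies apart from the other members above 100 TPM, and AKR1C3, ABCC3 and PIR lie at the low end of the level axis.

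The other genes of the same systems were given by a list of 66 genes, of which 58 were tested. Of these, 11 rose (19.0%, against the 16.7% of all genes tested) and 11 fell (19.0%, against 10.4%). With median-ratio scaling the counts were again 11 and 11, against 13.7% and 12.6% of all genes tested. Under quantile normalization they were 11 and 15, against 14.3% and 13.1%. Without the first siNC library 7 rose and 6 fell (against 10.7% and 5.57% of all genes tested), and without the third siNC library 9 rose and 7 fell (against 10.7% and 6.87%). The list had a median log2 fold change of -0.0374 on the TPM as deposited. The largest rises were in NFE2L1, the NRF2-related factor that controls proteasome genes (44.5 TPM ± 2.94 to 104.6 TPM ± 2.54, SD, 3 libraries each, log2 fold change 1.22), in GSTZ1, a transferase of tyrosine breakdown (0.87), in ME1, the NADPH-producing malic enzyme (0.77), and in HTATIP2 (0.71). The largest falls were in GGCT, a gamma-glutamyl cyclotransferase of glutathione turnover (82.3 TPM ± 6.35 to 20.4 TPM ± 3.02, log2 fold change -1.97), in TXNIP, the inhibitor of thioredoxin (-0.85), in CHAC2, which degrades glutathione (-0.81), and in TRIM16L (-0.74).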

How the data were processed

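The authors deposited 1 table of TPM per gene for the 6 RNA-seq libraries, with a gene length. The submitters' processing notes name fastp, HISAT2, StringTie and GRCh38, and their versions are not given in the sources used here. The library kit was stranded, and the strand setting of the counting is not given. TPM keeps no total depth, so precision rests on the spread between 3 libraries per group. Groups came from the library labels. Values were transformed to log2(TPM + 1), which understates changes of low genes, and genes averaging 1 TPM or more (14286 of 60664) entered a limma fit (version 3.58.1, R 4.3.3) with eBayes and a mean-variance trend. Tests were two-sided, with Benjamini-Hochberg adjustment over all genes tested and a threshold of 0.05. The code was tested on simulated data, where small changes were often missed. An exact permutation test of 3 against 3 cannot go below 0.1 and was not used. The members and gene lists were chosen with earlier results of these data known. All members and BCAT1 were named, with the 4 called genes of the pathway list that rose most and the 4 that fell most without overlap. MAFF and MAFK of that list were named besides, as small MAF genes. Gene positions came from GENCODE on GRCh38. Of the members, 12 have named pseudogenes (at most 1.15 TPM each) and 21 overlap a gene on the opposite strand.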

Additional observations from a re-analysis of the deposited data

How the results depend on the processing

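The table was also fitted without the filter, with a minimum of 5 TPM, a pseudocount of 0.1, median-ratio scaling, quantile normalization, limma without the trend, a replicate block, a correction for GC content and length with and without the block, and each library left out in turn, 15 alternatives in all. Of the 17 members called, 10 were called in every alternative in which they were tested (ABCC3 in 14, being below 5 TPM), and none of the 17 changed sign. Of the 19 not called, 12 were not called in any. All genes called numbered 2567 without the filter, and 2318 to 3706 when a library was left out. Members called higher numbered 2 to 6 on leaving out a library, members lower 8 to 12, pathway list genes higher 7 to 12 and lower 6 to 11, while 10% to 15.9% of all genes tested were higher and 5.57% to 10% lower. Without the filter, 7 pathway list genes were higher and 8 lower, against 5.04% and 3.01% of all 31860 genes tested. Members called in that fit numbered 3 higher and 9 lower. The members' median log2 fold change of -0.093 became -0.0682 with the 5 TPM minimum, -0.141 with median-ratio scaling, -0.188 with quantile normalization, -0.176 with the GC content and length correction, with or without the block, and -0.129 to -0.0674 on leaving out a library. The median of all genes tested, 0.0378, became 0.0528, -0.0063, 0.0039 and 0.0123 in the first 4 of these settings. The members' median moved further than that of all genes under quantile normalization and the GC content and length correction. The cause of these moves was not tested. Members with changes near 0 turned sign in some settings, none of them past the threshold, and under a scaling that shifts all genes such a turn says nothing of the member itself. Under median-ratio scaling GCLC gave -0.0045, GSS -0.0071, GSTP1 -0.0163 and SOD1 -0.0106. Quantile normalization gave GSS -0.0472, SOD1 -0.0047 and UGDH -0.0309. The GC content and length correction, with or without the block, gave PRDX1 -0.024, GCLC -0.0392, SOD1 -0.0552 and UGDH -0.0161. On leaving out a library, GCLC ranged from -0.0984 to 0.182, UGDH from -0.0163 to 0.122 and NQO1 from -0.1045 to 0.0111. With the replicate number as a block, 7 members rose, adding KEAP1, SOD2 and BLVRB, 13 fell, SRXN1 passing and PRDX5 not, and 4568 genes were called (19.4% of all genes tested higher and 12.6% lower). The deviations of same-numbered libraries correlated at 0.0844, 0.102 and 0.124, and although each library correlated best with its own number, the numbers are not taken as pairing the samples.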
